A study of Drosophila melanogaster with 24 samples.

Results

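The genes described here move chloride across membranes in fly neurons or control that transport. They are the chloride channel family genes ClC-a, ClC-b and ClC-c, the cation-chloride cotransporter genes kcc and Ncc69, and the kinase genes Wnk and fray. They were taken by name, as every probe set whose only gene symbol was one of these 7, which gave 7 probe sets for 6 genes, out of 18769 probe sets on the array. ClC-a had 2 probe sets (1629786_a_at and 1640203_at) and each other measured gene had 1. Ncc69, a sodium-potassium-chloride cotransporter gene, shared its probe set with another gene and was not analysed here. A probe set was tested where its log2 value reached 5 on at least 2 arrays. 6 of the 7 probe sets passed, 1 for each of the 6 genes, as did 8318 of the 18769.

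The chloride level inside a neuron is set by transporters that work in opposite directions. Sodium-coupled cotransporters such as Ncc69 bring chloride in, and the potassium-chloride cotransporter kcc carries it out, which in turn decides how strongly GABA-gated chloride channels inhibit the cell. The chloride-sensitive kinase Wnk activates the kinase fray, the fly member of the mammalian SPAK and OSR1 family, and fray-type kinases stimulate the sodium-coupled importers and restrain the potassium-chloride exporters. In fly clock neurons this pathway has been linked to intracellular chloride and to the period of the daily rhythm.

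RNA came from GFP-positive cells collected from dissociated adult brains, about 50 brains for each array, of flies kept in 12 h of light and 12 h of darkness. Small PDF neurons were sampled on 2 arrays each at ZT0 and ZT12, and large PDF neurons of per01 flies likewise. Wild-type large PDF neurons were sampled on 3 arrays each at ZT0 and ZT12 and 2 each at ZT6 and ZT18, and ELAV neurons on 3 arrays each at ZT0 and ZT12. Flies of the per01 background, which lack a working period gene, were males, and all others were of the yw background and of both sexes, called wild type here, so that genotype, background and sex cannot be told apart in the per01 comparison. ZT is time in hours after lights-on. The large and small PDF neurons are the clock neurons that make the neuropeptide PDF, and GFP was under pdf control in them. In the ELAV samples GFP was under control of elav, a gene active in neurons generally. Every sample was a pool of animals, and what is measured is a mean over the collected cells.

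All values are log2 signals as deposited, where a difference of 1 is a 2-fold change of signal, and a value under 5 was treated as background. Differences carry their standard error (SE), and p-values are adjusted over all 8318 probe sets. The words higher, lower, rose and fell are kept for an adjusted p below 0.05. The per01 arrays had a lower scale, with array medians of 2.57 to 2.6 against 3.14 to 3.44 on the 20 wild-type arrays. The median over all tested probe sets was therefore -0.69 between per01 and wild-type large PDF neurons, and the per01 levels below are set beside that shift. Of 4 PDF clock neuron markers (Pdf, cry, tim and Fer2), 4 were at 5 or more on every PDF array and 1 or 2 on each ELAV array. Glial markers (10 with a probe set) had 0 to 4 at 5 or more on an array, and repo and alrm, which define glia and astrocytes, reached at most 5.14 and 4.77 on any array. The sugar transporter gene Tret1-1, also on the glial list, averaged 7.84 in wild-type large PDF neurons, and the log2 summed signal of the list reached 10.6 there. Of 6 fat body markers apolpp was higher in large PDF than in ELAV neurons (7.77 against 5.79, adjusted p = 0.0260), with a log2 summed signal of that list between 6.91 and 9.96 on large PDF arrays and between 6.69 and 8.95 on ELAV arrays. The transcript of Gad1, the enzyme that makes GABA, stood at 9.51 on large ZT18 replicate 2 and 7.11 on small ZT0 replicate 1, but at 2.99 or less on the other wild-type PDF arrays. The glial gene Gs2 stood at 9.53 on large ZT0 replicate 2. That array also had 2 of 5 haemocyte markers at 5 or more and a log2 summed signal of 7.55 for them. The other arrays had 0 of these markers at 5 and at most 6.02. Of 5 photoreceptor markers, at most 1 was at 5 or more on any array. Results that use the 3 arrays high in Gad1 or Gs2 were also computed without them, for genes outside the marker lists.

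The first question was whether the chloride genes differ between PDF neurons and neurons at large. One gene did so by a wide margin. kcc, the chloride exporter, was lower in both kinds of PDF neuron than in ELAV neurons, by 7.98-fold in large and 7.05-fold in small PDF neurons. In bulk samples of this kind, fewer cells expressing a gene and less RNA per cell cannot be told apart. The other 5 genes differed by at most 1.25 on the log2 scale in either comparison. With limma, 2 of 6 probe sets were called between large PDF and ELAV neurons, 1 higher and 1 lower, where the shares over all tested probe sets were 24.4% in either direction, 11.9% higher and 12.5% lower. Between small PDF and ELAV neurons 1 of 6 was called, lower, against 27.6% of all probe sets (14.0% lower). The median difference of the 6 probe sets was 0.22 for large PDF against ELAV neurons, where that of all tested probe sets was -0.01, and 0.30 for small PDF against ELAV neurons, where it was 0.02.

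**Figure D1:**
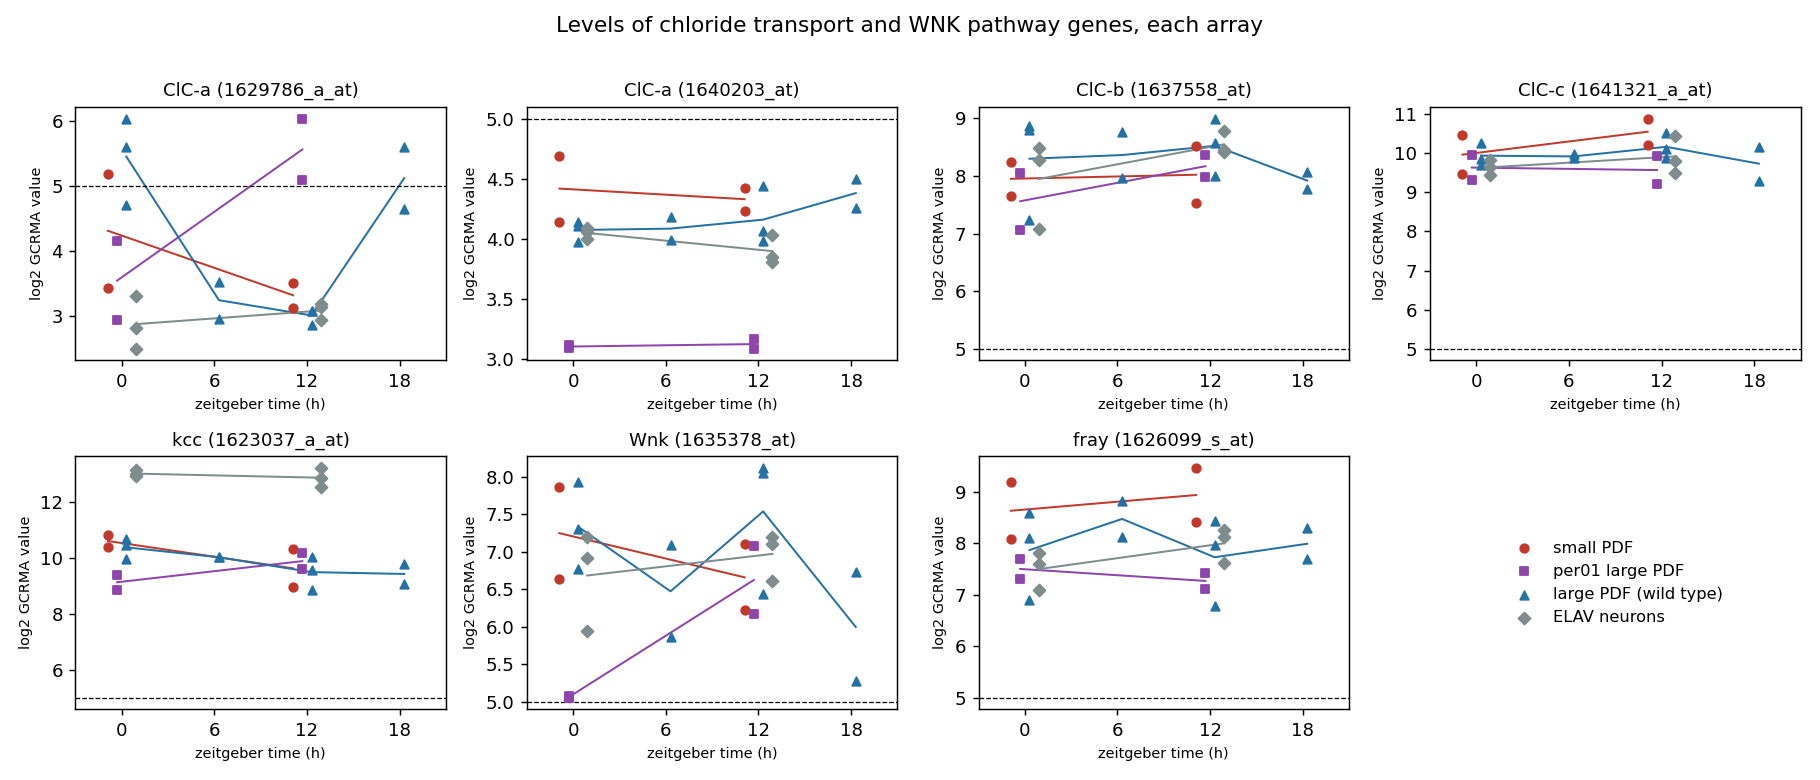
Log2 signal (vertical axis) of the 7 probe sets on each of the 24 arrays against zeitgeber time in hours (horizontal axis), for small PDF, per01 large PDF, wild-type large PDF and ELAV neurons, with 1 point for each array and a dashed line at the background level of 5. The 6 ELAV points for kcc lie between 12.52 and 13.21, above all 18 PDF points, and most ClC-a points lie under the dashed line.

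kcc, read by 1623037_a_at, stood at 10.29 and 8.95 at ZT12 and 10.80 and 10.38 at ZT0 in small PDF neurons. In large PDF neurons it stood at 10.46, 9.96 and 10.68 at ZT0, at 10.01 and 10.01 at ZT6, at 9.58, 8.86 and 10.02 at ZT12, and at 9.08 and 9.76 at ZT18. The ELAV arrays gave 13.21, 12.82 and 12.52 at ZT12 and 12.97, 13.12 and 12.90 at ZT0. The 2 sets of arrays did not overlap, since the highest PDF value was 10.80 and the lowest ELAV value 12.52. The mean over ZT12 and ZT0 was 9.93 in large PDF neurons and 12.92 in ELAV neurons, a difference of -3.0 ± 0.27 (SE, adjusted p = 2.12e-07). For small PDF neurons it was 10.11 against 12.92 in ELAV neurons, a difference of -2.82 ± 0.30 (SE, adjusted p = 1.58e-06). Both calls held in each alternative setting and without each array in turn. ELAV neurons therefore came first in the order of kcc levels. Small, wild-type large and per01 large PDF neurons followed at 10.11 ± 0.80 (SD, n = 4), 9.84 ± 0.56 (SD, n = 10) and 9.50 ± 0.54 (SD, n = 4), and neighbours in that order differed by less than 1 SD. The per01 level is on the deposited scale, with its shift of -0.69 over all probe sets. With that shift taken off, kcc in per01 was 0.27 from wild-type large PDF neurons over ZT12 and ZT0, on the upper side.

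The 3 genes whose pattern over the 10 group means was most like that of kcc, among 7216 probe sets with 1 gene symbol, were CG7430 (Pearson's r = 0.984), mub (0.979), which encodes an RNA-binding protein, and Lk (0.970), which encodes the neuropeptide leucokinin. These correlations describe 10 points that share arrays and normalization, and most of their range is the step between ELAV and PDF neurons.

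None of the other cation-chloride cotransporter genes was called lower in either kind of PDF neuron. NKCC, a sodium-potassium-chloride cotransporter gene, averaged 7.47 in large PDF and 5.93 in ELAV neurons, a rise of 1.55 ± 0.53 (SE, adjusted p = 0.0392). That call was lost in 8 of the 12 fits that left out 1 array, with an adjusted p of up to 0.113. CG10413, another gene of the same transporter family, was higher in both, by 1.02 ± 0.25 in large (SE, adjusted p = 0.00538) and 0.79 ± 0.28 in small PDF neurons (SE, adjusted p = 0.0416). The second of these calls was lost in 9 of 10 fits without 1 array. Of the 3 genes on that list, all of which passed the filter, 2 were thus higher in large and 1 in small PDF neurons.

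ClC-a encodes a chloride channel of the plasma membrane, known in flies mainly from glia. Its probe set 1629786_a_at was at 5 or more on 6 of 24 arrays, namely 1 of 4 small PDF, 2 of 4 per01, 3 of 10 large PDF and 0 of 6 ELAV arrays. The mean over ZT12 and ZT0 was 4.23 in large PDF and 2.98 in ELAV neurons, a difference of 1.25 ± 0.33 (SE, adjusted p = 0.00998), with overlapping arrays. That difference lay at ZT0, with means of 5.45 in large PDF and 2.88 in ELAV neurons. At ZT12 the means were 3.01 and 3.09. Since ELAV arrays were all under background, the fold is a bound of at least 1.21-fold, and with every value under 5 raised to 5 the difference was 0.27 with an adjusted p of 0.303. In small PDF neurons the difference from ELAV neurons was 0.84 ± 0.37 (SE, adjusted p = 0.106), and without 1 array in turn it ran between 0.40 (adjusted p = 0.495) without small ZT0 replicate 1 and 1.27 (adjusted p = 0.0209) without small ZT0 replicate 2. The second ClC-a probe set, 1640203_at, was under 5 on all arrays, at 3.09 to 3.17 in per01 and 3.81 to 4.69 in wild-type neurons, and was not tested. By the rule for naming likeness it stands for the gene, since its mean is the higher one, so the genes most like 1629786_a_at were looked up only after its values had been seen. They were Cyp4ad1 (r = 0.860), Veneno (0.830) and ImpE3 (0.818).

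ClC-b and ClC-c, relatives of the mammalian chloride-proton exchangers of endosomes and lysosomes, were not called in any comparison between kinds of cell. ClC-b lay between 7.53 and 8.51 in small PDF, 7.06 and 8.36 in per01 large PDF, 7.23 and 9.0 in large PDF, and 7.08 and 8.78 in ELAV neurons. ClC-c lay between 9.47 and 10.88 in small PDF, 9.21 and 9.95 in per01 large PDF, 9.30 and 10.52 in large PDF, and 9.45 and 10.45 in ELAV neurons. The 4 ranges overlapped for both genes. For large PDF against ELAV neurons the difference was 0.16 for ClC-b (95% interval -0.55 to 0.88) and 0.27 for ClC-c (-0.28 to 0.82). For small PDF against ELAV neurons it was -0.26 (-1.06 to 0.54) and 0.48 (-0.14 to 1.09).

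Wnk lay between 6.22 and 7.86 in small PDF neurons, between 5.27 and 8.12 in wild-type large PDF neurons, and between 5.94 and 7.20 in ELAV neurons. Its difference from ELAV neurons was 0.61 ± 0.39 in large PDF neurons (SE, adjusted p = 0.279) and 0.13 ± 0.43 in small PDF neurons (SE, adjusted p = 0.868). The arrays overlapped throughout.

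fray came nearest to separating the small PDF neurons from the rest. Its probe set, 1626099_s_at, carries the suffix of sets that may match more than 1 transcript. It stood at 9.47 and 8.41 at ZT12 and 9.19 and 8.08 at ZT0 in small PDF neurons. Large PDF neurons gave 6.79 to 8.83, with a median of 8.11, and ELAV neurons 7.09 to 8.26, with a median of 7.72. The higher value at each time in small PDF neurons was above every large PDF and ELAV array, and the lower one was not. The mean over ZT12 and ZT0 was 8.79 in small PDF and 7.75 in ELAV neurons, a difference of 1.04 ± 0.39 (SE, adjusted p = 0.0544) that did not pass the threshold. It passed under 6 of the 12 alternative settings, and without small ZT12 replicate 2 or small ZT0 replicate 2 it was 1.3 and 1.31 (adjusted p = 0.0370 for each). Without small ZT0 replicate 1 it was 0.757 (adjusted p = 0.236), and without the 3 arrays high in Gad1 or Gs2 the adjusted p was 0.265. Between large PDF and ELAV neurons the difference was 0.05 ± 0.35 (SE, adjusted p = 0.939). Mo25, a scaffold protein that helps activate such kinases, and Cul3, a ubiquitin ligase subunit that controls Wnk levels in mammals, were the listed partners. Neither was called for either kind of PDF neuron (0 of 2 in each comparison).

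**Figure D2:**
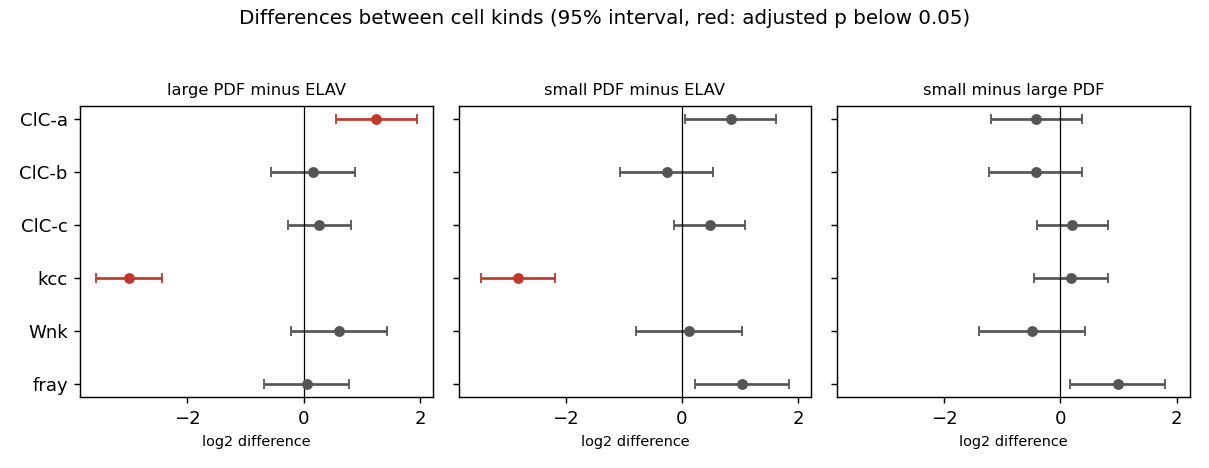
Difference in log2 signal (horizontal axis) of each of the 6 tested genes between large PDF and ELAV neurons, small PDF and ELAV neurons, and small and large PDF neurons, as point estimates with 95% intervals, in red where the adjusted p is below 0.05. kcc lies at -3.0 and -2.82 against ELAV neurons and at 0.18 between the kinds of PDF neuron, and fray in small PDF neurons lies near 1 against both.

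Small and large PDF neurons were compared to see whether the pacemaker types differ from each other. None of the 6 genes was called, with 1 of 6 at an unadjusted p below 0.05, where limma called 17.1% of all probe sets and 2600 of 8318 had an unadjusted p below 0.05. The largest of the 6 differences was that of fray, at 8.79 in small and 7.80 in large PDF neurons, or 0.99 ± 0.39 (SE, 95% interval 0.17 to 1.8, adjusted p = 0.0885). kcc differed by 0.18 (-0.45 to 0.82), Wnk by -0.48 (-1.40 to 0.43), ClC-a by -0.41 (-1.19 to 0.37), ClC-b by -0.43 (-1.23 to 0.38) and ClC-c by 0.21 (-0.41 to 0.82). NKCC was lower in small PDF neurons, at 5.57 against 7.47 in large PDF neurons, a difference of -1.91 ± 0.59 (SE, adjusted p = 0.0320). The NKCC call was lost in 7 of the 10 fits without 1 array.

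Other chloride channels were considered beside these genes. Of 12 listed ligand-gated chloride channel genes 11 had a probe set of their own and 5 passed the filter. In large PDF against ELAV neurons 1 of the 5 was higher and 2 were lower, and in small PDF neurons 2 were lower. Rdl, the main subunit of the fly GABA-gated chloride channel, was lower in both, with 10.79 in large PDF and 13.27 in ELAV neurons (-2.48 ± 0.27 SE, adjusted p = 2.31e-06). In small PDF neurons it was 11.31 against 13.27 in ELAV neurons (-1.96 ± 0.30 SE, adjusted p = 9.97e-05). Rdl and kcc were thus both lower in PDF neurons of either size, and both calls held without each array in turn. pHCl-1, a chloride channel gated by pH, was lower by 2.01 on the log2 scale in large PDF neurons (adjusted p = 0.00148) and by 1.5 in small ones (adjusted p = 0.0208). The call in small PDF neurons was lost without small ZT12 replicate 2 or small ZT0 replicate 2. CG8916, a gene of the same family, was higher in large PDF neurons, at 4.52 against 3.00 in ELAV neurons (1.51 ± 0.38 SE, adjusted p = 0.00700), with most values under background. With values under 5 raised to 5 the adjusted p was above 0.05. The difference lay at ZT0, with means of 6.16 and 3.12, whereas at ZT12 they were 2.87 and 2.89.

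Among 11 other chloride channel genes, 7 of which passed the filter, 1 was higher and 2 were lower in large PDF than in ELAV neurons. The bestrophin gene Best1 was lower by 1.89 on the log2 scale (adjusted p = 0.00689) and wwk, of the anoctamin family, was higher by 0.76 (adjusted p = 0.00661). Axs, of the same family, was lower by 2.68 (adjusted p = 0.000928), but it was under background on all 10 large PDF arrays. With values under 5 raised to 5 its difference was -1.44 (adjusted p = 0.00209), a bound of at least 2.72-fold. In small PDF neurons Best1 alone of the 7 was called, lower by 1.78 (adjusted p = 0.0177), a call lost without small ZT0 replicate 1. Of 10 anion exchanger genes 4 passed. Ndae1, a sodium-driven anion exchanger, was lower by 3.68 in large PDF (adjusted p = 2.82e-05) and by 1.68 in small PDF neurons (adjusted p = 0.0319), the second call being lost in 6 of 10 fits without 1 array. Ae2 was lower by 1.26 in large PDF neurons (adjusted p = 0.000855). Between the 2 kinds of PDF neuron, Ndae1 was higher by 2.00, Axs by 1.86, CG10353 by 1.06 and Ae2 by 0.83 in small PDF neurons, with adjusted p-values of 0.0198 to 0.0422. The Axs values in large PDF neurons were all under background, and those of Ndae1 ran between 2.26 and 5.94. With values under 5 raised to 5 the differences were 1.06 for Axs (adjusted p = 0.0388) and 1.02 for Ndae1 (adjusted p = 0.0228). Without 1 array the Ndae1 call was lost in 3 of 10 fits and each of the other 3 in 6 of 10. nrv1, a beta subunit of the sodium pump that powers these transporters, was higher by 2.36 in large PDF (adjusted p = 2.39e-05) and by 2.18 in small PDF neurons (adjusted p = 0.000156). For small PDF neurons the nrv1 means were 12.43 against 8.49 at ZT0, and 9.47 against 9.04 at ZT12. Irk1, an inwardly rectifying potassium channel, was higher than in ELAV neurons by 3.0 in large PDF (adjusted p = 0.000183) and by 4.54 in small PDF neurons (adjusted p = 6.79e-06). These Irk1 differences are means over 2 unlike times. At ZT0 large PDF, small PDF and ELAV neurons averaged 4.53, 6.33 and 4.15, and at ZT12 they averaged 10.06, 11.34 and 4.44. nrv2, another beta subunit, was higher by 1.39 in small PDF than in ELAV neurons (adjusted p = 0.00636) and by 1.20 in small than in large PDF neurons (adjusted p = 0.0252), a call lost without large ZT12 replicate 2, small ZT12 replicate 2 or small ZT0 replicate 2.

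The per01 arrays show the same genes in large PDF neurons without a working clock. On the deposited scale Wnk alone of the 6 was called, lower in per01, where the share over all probe sets was 32.0% (31.0% lower). Each scale gave its own set of calls over all probe sets. On the deposited scale 77 were higher and 2582 lower (2.90% higher). Quantile normalization anew gave 259 higher and 328 lower (44.1%), and median centring gave 254 and 465 (35.3%). The median of the 6 differences was -0.44, against -0.69 over all probe sets. Wnk stood at 6.17 and 7.08 at ZT12 and at 5.07 and 5.05 at ZT0 in per01 neurons. Wild-type large PDF neurons gave 8.05, 6.44 and 8.12 at ZT12 and 7.93, 6.77 and 7.30 at ZT0. The per01 ZT0 arrays were below every wild-type array of those times, and the per01 ZT12 arrays overlapped with them. The means were 5.84 in per01 and 7.44 in wild type, a difference of -1.59 ± 0.43 (SE, adjusted p = 0.0110), or -0.90 after the median of all probe sets is taken off. The call did not hold on a common scale, at -0.73 (adjusted p = 0.306) after the arrays were quantile normalized anew and at -0.95 (adjusted p = 0.216) after each array was centred on its median. It was also lost without per01 ZT12 replicate 1 (adjusted p = 0.0609).

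**Figure D3:**
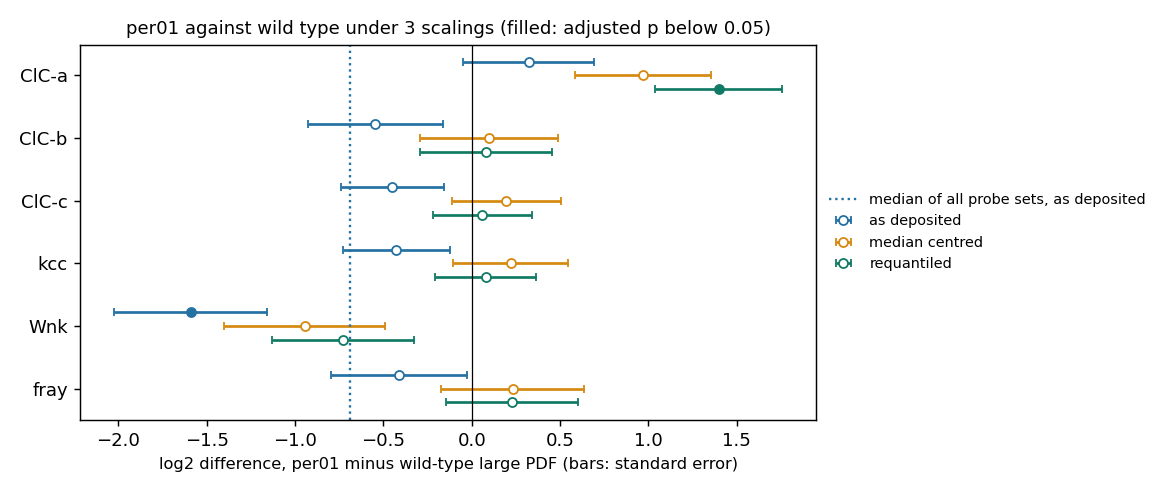
Difference in log2 signal between per01 and wild-type large PDF neurons (horizontal axis) for the 6 tested genes. Points are on the deposited scale, after median centring and after quantile normalization anew, with SE bars. They are filled where the adjusted p is below 0.05, and a dotted line marks the median of all probe sets on the deposited scale, -0.69. Wnk is filled on the deposited scale alone and ClC-a after quantile normalization alone.

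The other 5 genes were not called on the deposited scale. kcc was at 9.50 in per01 and 9.93 in wild type, a difference of -0.43 ± 0.30 (SE). The differences were -0.55 ± 0.38 for ClC-b, -0.45 ± 0.29 for ClC-c and -0.41 ± 0.39 for fray (SE), each closer to 0 than the median of all probe sets. For ClC-a it was 0.32 ± 0.37 (SE, adjusted p = 0.517), and 1.40 ± 0.36 (SE, adjusted p = 0.0253) after quantile normalization anew. NKCC was lower in per01 on every scale, at 4.24 against 7.47 in wild type. Its per01 arrays, 4.11 and 4.72 at ZT12 and 3.87 and 4.24 at ZT0, were all under background and below every wild-type large PDF array. The difference was -3.24 ± 0.59 (SE, adjusted p = 0.000775), -2.12 after quantile normalization anew (adjusted p = 0.0343), -2.59 after centring (adjusted p = 0.0119) and -2.48 with values under 5 raised to 5 (adjusted p = 0.00330). On the deposited scale 8 further genes of the transport and partner lists were lower in per01, among them Cul3 (-1.53 ± 0.42, adjusted p = 0.0110) and the cotransporter gene CG12773 (-1.80 ± 0.41, adjusted p = 0.00357). With NKCC, those lower were 2 of 3 cotransporters, 1 of 2 partners of Wnk, 0 of 5 ligand-gated chloride channels and 2 of 7 other chloride channels. So were 2 of 4 anion exchangers and 2 of 4 sodium pump and inward rectifier genes, where 31.0% of all probe sets were called lower. None of the 8 further calls held after quantile normalization anew or centring, and none of the transport or partner genes was higher. Both Cul3 and CG12773 were under background on all 4 per01 arrays, and their calls were lost with values under 5 raised to 5 (adjusted p = 0.257 and 0.226). Glial markers also differed between the genotypes, with a log2 summed signal of 6.04 to 6.38 on per01 arrays and 6.99 to 10.6 on wild-type large PDF arrays, and among them Tret1-1 (-3.61 ± 0.77 SE, adjusted p = 0.00241) and Gs2 (-2.22 ± 0.81 SE, adjusted p = 0.0440) were lower in per01. The wild-type Gs2 mean, 5.05, includes large ZT0 replicate 2, the array set apart above for Gs2, and no Gs2 result without it is given here. The fat body genes Yp1 and Yp2, which encode yolk proteins, were lower in per01 as well, by 2.90 (adjusted p = 0.0178) and 2.28 (adjusted p = 0.00158). The per01 flies were males and the others of both sexes, so sex and genotype cannot be told apart in these values. Also lower were the neuronal gene nSyb, by 0.79 (adjusted p = 0.0193), and the clock neuron gene Fer2, by 1.68 (adjusted p = 0.00536). These marker values are on the deposited scale, and the part of the markers in the per01 results was not tested.

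The time of day was examined in wild-type large PDF neurons at 4 times. Of the tested genes only ClC-a was called. Its probe set 1629786_a_at stood at 5.61, 6.03 and 4.72 at ZT0, at 3.53 and 2.96 at ZT6, at 3.08, 3.09 and 2.86 at ZT12, and at 4.65 and 5.60 at ZT18. Values at ZT18 and ZT0 thus lay around or above background, and those at ZT6 and ZT12 lay below it, without overlap. This probe set passed the filter only through arrays where it was high. No ELAV array and no large PDF array at ZT6 or ZT12 reached 5. The other ClC-a probe set, 1640203_at, averaged 4.07 at ZT0, 4.09 at ZT6, 4.16 at ZT12 and 4.38 at ZT18, all under background. ClC-a was called in the F test over 4 times (F = 12.6, adjusted p = 0.0137, range of group means 2.44), the 1 of 6 genes called where 2.02% of all probe sets were. ZT12 was lower than ZT0, at 3.01 ± 0.13 (SD, n = 3) against 5.45 ± 0.67 (SD, n = 3). The difference was -2.44 ± 0.47 (SE, adjusted p = 0.00958), or at least 1.46-fold with values under 5 raised to 5. It was the 1 of 6 called for ZT12 against ZT0 in large PDF neurons, where 2.19% of all probe sets were called (1.20% lower). The median of the 6 differences was 0.03 and that of all probe sets -0.03.

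The ClC-a call for ZT12 against ZT0 held without each array in turn and without the 3 arrays high in Gad1 or Gs2 (-2.15, adjusted p = 0.0232). With no filter limma's adjusted p was 0.0176 for it and 0.0179 for the F test. The call for ZT12 against ZT0 was lost with values under 5 raised to 5 (-0.55, adjusted p = 0.279) and with only the groups compared in the fit (adjusted p = 0.143). The F test was lost in those settings too (adjusted p = 0.454 and 0.102) and without the 3 arrays (adjusted p = 0.0542). ZT18 and ZT6, which share no array with that comparison, gave 5.12 ± 0.67 and 3.25 ± 0.40 (SD, n = 2 each), a difference of 1.88 ± 0.57 (SE, adjusted p = 0.248). Of the 6 genes limma called 0 for ZT18 against ZT6 and 1 was at an unadjusted p below 0.05, where 0.397% of all probe sets were called and 741 were at that level unadjusted. The log2 summed signal of the glial markers was 8.52 to 10.6 at ZT0, 8.54 to 8.89 at ZT6, 7.35 to 8.60 at ZT12 and 6.99 to 7.72 at ZT18. Large ZT0 replicate 2 had both the highest glial signal, 10.6, and the highest wild-type ClC-a value, 6.03. The arrays high in Gad1, large ZT18 replicate 2 and small ZT0 replicate 1, had the higher ClC-a values of their groups of 2 arrays, 5.60 and 5.19. Besides these 3 arrays, the 1 wild-type array at 5 or more was large ZT0 replicate 1, at 5.61. The highest ClC-a value of all 24 arrays, 6.04, was on per01 ZT12 replicate 2, with a summed glial signal of 6.38. On per01 ZT12 replicate 1 ClC-a was at 5.09 and the glial signal at 6.04. Gad1 was at most 2.64 on per01 arrays. The part of glial RNA, or of RNA from other cells, in the ClC-a values was not tested.

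kcc stood at 10.37 ± 0.37 at ZT0 (SD, n = 3), 10.01 at ZT6 on both arrays, 9.48 ± 0.59 at ZT12 (SD, n = 3) and 9.42 ± 0.48 at ZT18 (SD, n = 2). Its F test gave an adjusted p of 0.379, and for ZT12 against ZT0 it differed by -0.88 ± 0.38 (SE, adjusted p = 0.245). Wnk was between 5.27 and 6.72 at ZT18 and between 6.44 and 8.12 at ZT12, with F = 2.75 and an adjusted p of 0.341. fray, ClC-b and ClC-c had group means that spanned 0.74, 0.60 and 0.43 over the 4 times, with adjusted p-values of 0.801, 0.883 and 0.900. The genes most like Wnk over the 10 group means were scramb1 (r = 0.926), CG7133 (0.915) and Cdc50 (0.906), again as a description of 10 points.

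In the other cells, with ZT12 and ZT0 alone, 0 of 6 genes were called by limma. In small PDF neurons 0 of 6 were at an unadjusted p below 0.05, where 3.39% of all probe sets were called. In ELAV neurons 0 of 6 were, where 0.0240% were called, and in per01 large PDF neurons 2 of 6 were, where 0.0120% were called. Counts at an unadjusted p below 0.05 over all probe sets were 1098, 339 and 301 in that order. ClC-a stood at 3.51 and 3.13 at ZT12 and at 5.19 and 3.44 at ZT0 in small PDF neurons, which overlapped, and between 2.50 and 3.32 in ELAV neurons at both times. In per01 large PDF neurons it stood at 5.09 and 6.04 at ZT12 and at 4.16 and 2.94 at ZT0, which did not overlap, with a difference of 2.02 ± 0.57 (SE, adjusted p = 0.731). Wnk in per01 neurons differed by 1.56 ± 0.67 (SE, adjusted p = 1), from the 4 values given above. kcc in small PDF neurons differed by -0.97 ± 0.47 (SE, adjusted p = 0.387), at 9.62 ± 0.95 at ZT12 and 10.59 ± 0.30 at ZT0 (SD, n = 2 each).

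**Figure D4:**
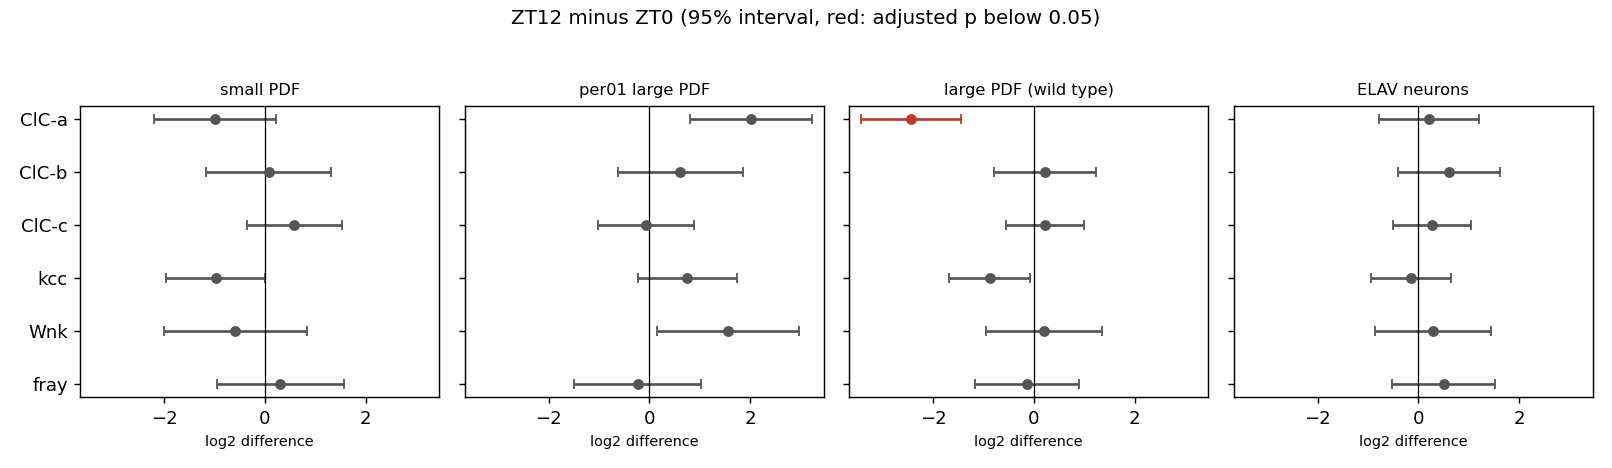
Difference in log2 signal, ZT12 minus ZT0 (horizontal axis), of the 6 tested genes in small PDF, per01 large PDF, wild-type large PDF and ELAV neurons, as point estimates with 95% intervals, in red where the adjusted p is below 0.05. The wild-type large PDF estimate for ClC-a lies at -2.44 and the per01 estimate at 2.02.

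The time change of ClC-a was called as different between the genotypes, while the change within per01 neurons was not itself called (adjusted p = 0.731). The change for ZT12 against ZT0 was 2.02 in per01 and -2.44 in wild-type large PDF neurons, a difference of 4.46 ± 0.74 (SE, adjusted p = 0.0325). It was the 1 of 6 genes called for this difference, where 0.144% of all probe sets were called (0.0842% higher). Of the 10 arrays it rests on, 4 had a ClC-a value of 5 or more. The call held after quantile normalization anew (3.98, adjusted p = 0.0407) and without the 3 arrays (4.17, adjusted p = 0.0351). It was lost with values under 5 raised to 5 (1.11, adjusted p = 0.434) and with only the 4 groups in the fit (adjusted p = 0.276). It was also lost without any one of large ZT0 replicate 2, large ZT12 replicate 3, per01 ZT12 replicate 2 or per01 ZT0 replicate 2, with an adjusted p of 0.0523 to 0.141. kcc differed in the same test by 1.63 ± 0.60 (SE, adjusted p = 0.475) and Wnk by 1.36 ± 0.87 (SE, adjusted p = 0.753).

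Between other kinds of cell the time changes of the 6 genes were not told apart by limma. The comparison of small with large PDF neurons called 0 of 6 (0 at an unadjusted p below 0.05), against 0.697% of all probe sets. That of large PDF with ELAV neurons called 0 of 6 (1 unadjusted), against 0.0962%, and that of small PDF with ELAV neurons 0 of 6 (0 unadjusted), against 1.13%. At an unadjusted p below 0.05 there were 904, 888 and 856 probe sets in that order. For ClC-a the difference in time change between large PDF and ELAV neurons was -2.65 ± 0.66 (SE, adjusted p = 0.139). These comparisons share arrays with those within each kind of cell.

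Several companion genes also changed with time. Irk1 was higher at ZT12 than at ZT0 in small PDF neurons, with 11.67 and 11 at ZT12 and 6.62 and 6.04 at ZT0 (5.01 ± 0.85 SE, adjusted p = 0.00201). In wild-type large PDF neurons Irk1 stood at 6.12, 2.98 and 4.48 at ZT0, at 3.47 and 5.17 at ZT6, at 9.62, 10.09 and 10.47 at ZT12, and at 7.0 and 5.79 at ZT18 (F = 27.6, adjusted p = 0.000844). ZT12 was above every array of the other times. In per01 large PDF neurons Irk1 was at 7.90 and 8.09 at ZT12 and 7.29 and 6.53 at ZT0, a difference of 1.08 ± 0.85 that was not called. The difference of the time change between per01 and wild type was -4.45 ± 1.09 (SE, adjusted p = 0.153).

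**Figure D5:**
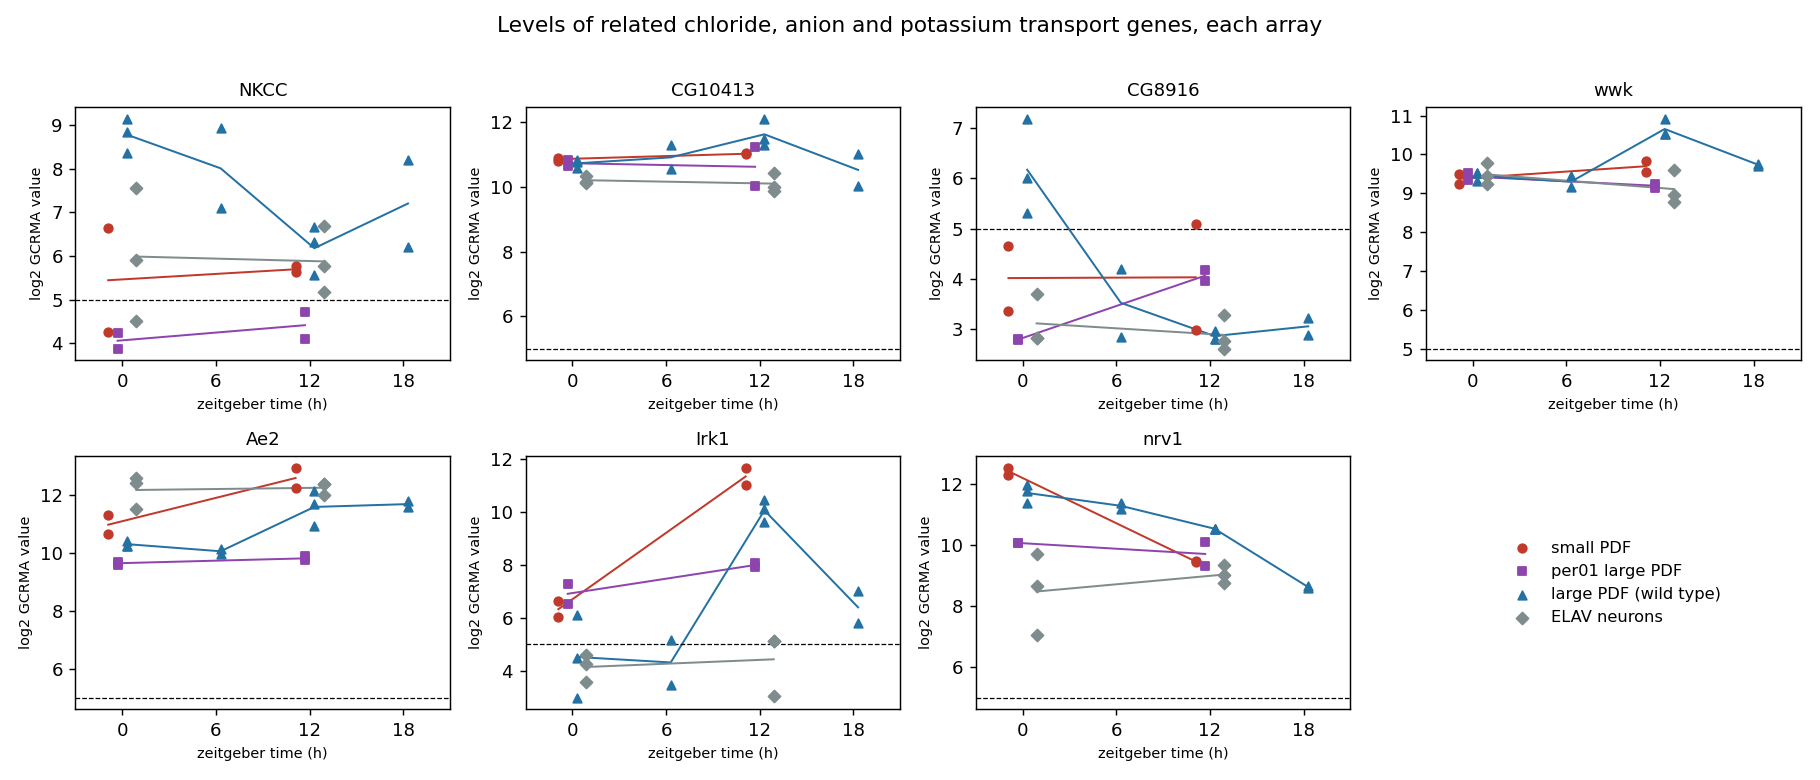
Log2 signal (vertical axis) of 7 companion genes on each of the 24 arrays against zeitgeber time in hours (horizontal axis), by kind of cell and genotype, with 1 point for each array. The 3 large PDF points of Irk1 at ZT12 lie between 9.62 and 10.47, and the 4 per01 points of NKCC lie between 3.87 and 4.72.

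The channel gene CG8916 had a course like that of ClC-a in part. In wild-type large PDF neurons it stood at 7.18, 5.31 and 6.0 at ZT0, at 4.19 and 2.86 at ZT6, at 2.82, 2.97 and 2.82 at ZT12, and at 2.90 and 3.22 at ZT18, so that ZT0 alone was above background. ZT12 was lower than ZT0 by 3.30 on the log2 scale (SE 0.54, adjusted p = 0.00298). Since its ZT12 arrays were all under background, the fold is a bound of at least 2.24-fold, and with values under 5 raised to 5 the difference was -1.16 (adjusted p = 0.0452). In per01 neurons it was at 4.17 and 3.96 at ZT12 and 2.80 and 2.79 at ZT0, all under background. CG8916 reached 5 only at large ZT0 and on a small ZT12 array, at 5.08, and passed the filter through those arrays. The time change differed between per01 and wild type by 4.57 ± 0.85 (SE, adjusted p = 0.0345), a call lost in 9 of 10 fits without 1 array and with values under 5 raised to 5 (1.16, adjusted p = 0.551). nrv1 fell in small PDF neurons to 9.47 at ZT12, against 12.43 at ZT0 (-2.96 ± 0.55 SE, adjusted p = 0.00434), and in large PDF neurons to 8.63 at ZT18, against 11.29 at ZT6 (-2.66 ± 0.55 SE, adjusted p = 0.0376). The first of these was lost without the 3 arrays high in Gad1 or Gs2, and the second in all 4 fits without 1 of its arrays. wwk was higher at ZT12 than at ZT0 in large PDF neurons by 1.20 ± 0.27 (SE, adjusted p = 0.0231), a call lost in 4 of 6 fits without 1 array. Ae2 was higher at ZT12 than at ZT0 in small PDF neurons by 1.61 ± 0.42 (SE, adjusted p = 0.0410), a call lost in all 4 fits without 1 of its arrays. NKCC in large PDF neurons stood at 6.66, 5.56 and 6.31 at ZT12 and at 8.35, 9.14 and 8.83 at ZT0, which did not overlap, with a difference of -2.60 ± 0.74 that missed the threshold (SE, adjusted p = 0.0740).

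Counted by list for wild-type large PDF neurons over 4 times, the companion genes called were 0 of 3 cotransporters, 0 of 2 partners of Wnk, 1 of 5 ligand-gated chloride channels (CG8916), 1 of 7 other chloride channels (wwk), 1 of 4 anion exchangers (Ae2) and 2 of 4 sodium pump and inward rectifier genes (Irk1 and nrv1). In this F test the Irk1 and CG8916 calls held without each array in turn, whereas wwk was lost in 10 of 10 such fits, Ae2 in 9 and nrv1 without large ZT18 replicate 1 or 2. Under the other alternative settings the Irk1 call was lost in 2 of 13 (adjusted p up to 0.117). The CG8916 call was lost in 3 of 12 (up to 0.163). In ELAV neurons and in per01 large PDF neurons 0 were called in any list for ZT12 against ZT0. Beside the change within each kind of cell, the time change differed from that of ELAV neurons for Irk1 in small PDF neurons (4.72 ± 1.09 SE, adjusted p = 0.0442) and for nrv1 in small PDF neurons (-3.52 ± 0.71 SE, adjusted p = 0.0197), calls lost in 8 and 4 of 10 fits without 1 array. For Irk1 in large PDF neurons it was 5.24 ± 0.98 (SE, adjusted p = 0.0474), a call lost in 10 of 12 fits without 1 array.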

How the data were processed

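Total RNA of 24 samples was amplified by 2 rounds of T7 transcription and hybridised to Affymetrix arrays, per the labels' protocols. The deposited values are log2 signals for each probe set; the submitters' processing notes name GCRMA and R 2.6. That method subtracts background estimated from probe sequence, equalises the arrays and combines the probes of a set. The sources used here do not give the set of arrays that the authors normalized with each other. Gene names came from the platform's annotation, updated by gene ID: 13647 of 18769 probe sets (18952 deposited, less 183 controls) had 1 symbol, 402 had several and 4720 had none.

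Here 8318 probe sets with log2 values of 5 or more on at least 2 arrays were fitted with limma 3.58.1 in R 4.3.3, with a mean for each of 10 groups (14 residual and 3.62 prior degrees of freedom), moderated t and F tests and Benjamini-Hochberg adjustment. Contrasts between kinds of cell weighted ZT12 and ZT0 equally. The scripts were tested on simulated data. Replicate arrays correlated at 0.878 to 0.959 and 0 pairs were identical. The labels call the replicates biological, and p-values measure the spread between these samples. The number of arrays, 2 or 3 in each group, limits precision.

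The genes, the companion lists and the tests were chosen with earlier results of these data known. Named were all probe sets of the pathway genes, the called genes of each companion list (at most 4 a list by size in a comparison), and the 3 genes most like a pathway gene whose group means spanned at least 2 (uncalled NKCC and Irk1 values are also given, chosen after they were seen). Alternatives were other filters, a floor at 5, scalings, variance models, array weights, a replicate block, smaller fits and leaving out arrays; the fits without 3 arrays or without per01 arrays were chosen after seeing the data. HisCl1, Atpalpha and Ncc69 had no probe set of their own and were not analysed here. Sequences were not used here.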

Additional observations from a re-analysis of the deposited data

Results flagged for a closer look

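The change of ClC-a for ZT12 against ZT0 differed between genotypes by a test of the difference itself, at 2.02 in per01 and -2.44 in wild-type large PDF neurons. The difference was 4.46 ± 0.74 (SE, limma's adjusted p = 0.0325). The 2 per01 arrays of ZT12 lay above the 2 of ZT0, and the 3 wild-type arrays of ZT12 lay below the 3 of ZT0. Of the 10 arrays, 6 had a value under background. The call was lost with values under 5 raised to 5 (1.11, adjusted p = 0.434), with only the 4 groups in the fit (adjusted p = 0.276) and without any one of 4 arrays (adjusted p = 0.0523 to 0.141). No group held 4 or more arrays, so single arrays were not tested as outliers.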

How the results depend on the processing

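The number of pathway genes called moved by more than 1.5 times in 21 of 164 results, over 14 comparisons and all settings tried except leaving out 1 array. With a filter at log2 7 and with values under 5 raised to 5, it was 1 instead of 2 for large PDF against ELAV neurons, 2 instead of 1 for small PDF against ELAV neurons, and 0 instead of 1 for ZT12 against ZT0 in large PDF neurons, for the 4 times, and for the time change between per01 and wild type. The filter at 7 removed ClC-a. With only the groups compared in the fit, which has fewer arrays, the last 3 were also 0, and the 4 times gave 0 without the 3 arrays high in Gad1 or Gs2 and with a 24-hour cosine regression. Median centring gave 0 instead of 1 for per01 against wild type. Quantile normalization anew, a robust variance trend and array weights gave 2 for small PDF against ELAV neurons, which fray joined; the cause was not tested. The replicate block gave 2 there and 1 instead of 0 between small and large PDF neurons, where fray passed (adjusted p = 0.0250). Of 96 same-numbered pairs of arrays, 4 had deviations that correlated above 0.1 (range -0.158 to 0.139). Between groups of 2 arrays, replicates 1 and 2 give the same correlation by construction, and the 4 came from such groups. These correlations therefore cannot decide whether replicate numbers pair the samples. The block changed no other call of a pathway gene. Leaving out 1 array gave 0 to 1 for per01 against wild type, 1 to 3 for small PDF against ELAV neurons and 0 to 1 for the time change between per01 and wild type. No pathway gene reversed a called difference. The companion gene nrv2, lower in per01 by 0.97, stood at 0.14 after quantile normalization anew. Over all probe sets, counts of calls (deposited setting, then lowest to highest) were 2659, 587 to 6603, for per01 against wild type, 1423, 802 to 1541, for small against large PDF neurons, 182, 0 to 288, for ZT12 against ZT0 in large, 282, 0 to 362, in small PDF neurons, 2, 0 to 7, in ELAV neurons and 1, 0 to 4, in per01 neurons. They were 33, 0 to 106, for ZT18 against ZT6 and 168, 12 to 334, for the 4 times. For time changes they were 12, 0 to 34, between per01 and wild type (58.3% higher, and 47.1% after quantile normalization anew), 8, 0 to 45, between large PDF and ELAV neurons (62.5% and 83.3%), 58, 5 to 110, between small and large PDF neurons and 94, 41 to 178, between small PDF and ELAV neurons. Values of ClC-a near background limit what can be said of its size.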
